A study of Homo sapiens with 44 samples.

Results

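The replication licensing genes MCM2, MCM3, MCM4, MCM5, MCM6, MCM7, MCM10, CDC6, CDC45 and CDT1 were followed through 44 arrays of human acute myeloid leukemia (AML) cells, in 4 lines, with hairpins against GSK3A or GSK3B. These 10 genes were taken by symbol, through the 15 probe sets of the array annotation that name 1 of them alone, out of 19724 probe sets that name a single gene. Where a gene had several probe sets the brightest was used, which gave 10 of 12165 genes.

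A replication origin is licensed when the origin recognition complex, CDC6 and CDT1 load a double ring of MCM2 to MCM7 onto DNA in G1. The ring is the inactive core of the replicative helicase, and in S phase CDC45 and the GINS proteins join it to make the helicase active, with MCM10 needed for its start. Geminin, and the destruction of CDT1 through the CUL4A and DTL ubiquitin ligase, keep an origin from being licensed again in the same cycle. Most of these genes are transcribed as cells enter S phase, by factors of the E2F family, so their transcripts are abundant in dividing cells and low in resting or differentiated ones.

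The lines were HL-60 (promyelocytic), THP-1 and MOLM-14 (monocytic, with a rearranged KMT2A gene) and U937 (monocytic). In each line the cells carried a lentiviral hairpin against GSK3A (hairpin 5 or 6, 2 arrays each), against GSK3B (hairpin 1 or 2, 2 arrays each) or a scrambled sequence (control, 3 arrays). GSK3A and GSK3B encode paralogs of the serine/threonine kinase GSK-3. All groups, controls included, were infected, put under puromycin at 1 µg/mL from 48 h after infection and harvested for RNA 48 h after that. The labels call the replicates biological and say nothing of separate infections, so p-values measure the spread between these arrays, which may be technical. The cells are bulk cultures, in which a smaller share of cycling cells and less RNA per cell cannot be told apart.

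The targeted transcripts were read first. The GSK3B probe set was lower with the GSK3B hairpins in each line (log2 change -1.97 in MOLM-14, -1.68 in HL-60, -1.58 in U937 and -1.01 in THP-1), at 30.0 ± 7.70 against 158 ± 16.02 in the MOLM-14 controls (deposited intensity, SD, n = 4 and 3). The GSK3A probe sets were dim. The brighter one read 44.8 ± 1.65 on the MOLM-14 arrays labelled GSK3A, against 45.9 ± 1.38 on the MOLM-14 controls, a log2 change of -0.03 that did not pass the test (limma, adjusted p = 0.811). The other read 21.8 ± 2.87 on the arrays labelled GSK3A and 20.8 ± 1.64 on the controls. HL-60 was the single line in which GSK3A was called lower with its own hairpins, at 45.4 ± 0.96 against 54.2 ± 3.21 (log2 change -0.20, adjusted p = 0.0139 by limma). The brighter probe set read 35.9 ± 5.07 against 37.2 ± 4.64 in THP-1 (log2 change -0.03, adjusted p = 0.996) and 41.1 ± 3.90 against 44.5 ± 4.40 in U937 (-0.09, adjusted p = 0.46), so neither line passed the limma test. Averaged over the 4 lines, HL-60 included, the brighter probe set was called lower (-0.09, adjusted p = 0.0176 by limma). Against the GSK3B arrays it was at -0.12 over the lines (adjusted p = 0.000655 by limma). Within a line that difference was -0.13 in HL-60 and MOLM-14, -0.11 in U937 and -0.10 in THP-1, and none was called. The labels report knockdown by western blot, which is not analysed here. The GSK3A arrays are therefore called by their labels, and below GSK3A names the label of an array. In MOLM-14, THP-1 and U937 no GSK3A transcript was called lower within the line.

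Every line was spread over plate columns 1 to 6 (6 arrays, replicate 1 of each hairpin and controls 1 and 2) and 7 to 11 (5 arrays, replicate 2 of each hairpin and control 3). These are positions on the hybridization plate, read from the array names. In U937 and MOLM-14 many genes differed between them, so results are also given within plate columns and with the columns as a block. The median deposited intensity of an array was 18.95 to 22.9. The myeloid markers included PTPRC (CD45) between 571 and 1059 in MOLM-14, while SPI1 lay at 15.6 to 27.4, near the array medians, and MPO at 19.7 to 123 with a median of 33.6. Of the myeloid markers measured in MOLM-14, PTPRC (0.32) and CSF1R (0.22) were higher and MPO (-1.29) was lower on the arrays labelled GSK3A (log2 change). MPO was lower with GSK3B hairpins too (-1.42). PTPRC and CSF1R were not called higher with either GSK3A hairpin alone, while SPI1 was called higher with hairpin 5. CSF1R lay at 15.1 to 30.0 in MOLM-14, near the array medians. The summed level of the 5 myeloid markers ran from 753 to 1155 with GSK3A, 677 to 769.7 with GSK3B and 696 to 947 in the controls. No erythroid (3 measured), T and NK (4), B (2) or epithelial and stromal (4) marker passed the test with GSK3A in MOLM-14. Their sums there were 25.2 to 29.7 (erythroid), 135 to 368 (T and NK, nearly all NKG7 at 105 to 346), 19.7 to 23.3 (B) and 37.4 to 45.5 (epithelial and stromal) on the arrays labelled GSK3A. On the controls they were 24.6 to 28.5, 179.96 to 290.6, 17.2 to 25.5 and 40.3 to 46.1, in the same order. The part of the myeloid marker shifts in the results below was not tested.

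Promoters were looked up because the members moved together in MOLM-14. RefSeq promoter entries were found for 8 of the 10 genes, 12 entries in all on GRCh38.p14, with MCM4 and MCM5 unmatched. The 250 bases before the start were searched on both strands for the E2F letters TTTGGCGC, TTTCCCGC, TTTGCCGC or TTTCGCGC, the CCAAT box, the CHR letters TTTGAA or TTCGAA (a cell-cycle homology region) and the E-box CACGTG. E2F letters stood in 4 of the 12 entries, 1 each of MCM3, MCM6, MCM7 and CDT1, and in 2.79% of the 35116 promoters in the table. The 4 are shown for that reason, with capitals marking E2F letters and the CCAAT box on either strand: MCM6 at chr2:135876444-135876693 on the minus strand, MCM3 at chr6:52284743-52284992 on the minus strand, the 1 of 3 MCM7 entries with E2F letters at chr7:100101398-100101647 on the minus strand, and CDT1 at chr16:88803539-88803788 on the plus strand.
MCM6: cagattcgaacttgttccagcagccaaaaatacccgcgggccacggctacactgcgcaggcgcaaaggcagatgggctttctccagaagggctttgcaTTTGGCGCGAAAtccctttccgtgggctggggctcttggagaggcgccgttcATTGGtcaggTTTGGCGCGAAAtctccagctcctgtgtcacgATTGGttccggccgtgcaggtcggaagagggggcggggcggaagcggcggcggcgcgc
MCM3: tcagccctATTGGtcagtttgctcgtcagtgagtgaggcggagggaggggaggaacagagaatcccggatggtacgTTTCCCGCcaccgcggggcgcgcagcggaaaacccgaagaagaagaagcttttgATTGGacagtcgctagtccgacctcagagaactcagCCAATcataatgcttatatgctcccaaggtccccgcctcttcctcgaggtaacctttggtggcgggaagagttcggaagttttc
MCM7: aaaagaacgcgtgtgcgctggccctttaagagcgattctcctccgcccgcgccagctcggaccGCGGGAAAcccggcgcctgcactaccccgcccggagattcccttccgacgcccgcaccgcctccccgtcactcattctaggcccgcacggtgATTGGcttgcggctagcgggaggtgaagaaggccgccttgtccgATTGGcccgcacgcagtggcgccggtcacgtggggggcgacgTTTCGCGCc
CDT1: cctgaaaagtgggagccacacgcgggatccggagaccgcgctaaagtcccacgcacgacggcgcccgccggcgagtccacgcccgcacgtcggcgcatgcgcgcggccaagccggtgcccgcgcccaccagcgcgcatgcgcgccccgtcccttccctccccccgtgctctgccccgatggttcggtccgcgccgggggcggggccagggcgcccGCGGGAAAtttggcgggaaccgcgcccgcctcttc
MCM6 holds 2 copies of a run in which the E2F letters of both strands overlap, beginning 152 and 90 bases before the start. In MCM3 the E2F letters begin 174 bases before the start, in CDT1 35 bases before it and in MCM7 187 and 9 bases before it. The CCAAT box was found in 9 of the 12 entries and in 32.0% of all promoters. Those entries belong to 6 of the 8 genes (MCM3, MCM6, MCM7, MCM10, CDC6 and CDC45). The CHR letters were found in 1 entry, of MCM6 (14.3% of all promoters), and the E-box in 2 entries, of MCM2 and MCM7 (6.34%). MCM2, MCM3 and CDC6 hold E2F letters that reach or pass the start, outside the stretch shown. A match describes letters and shows no binding.

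In MOLM-14 all 10 licensing genes were lower on the arrays labelled GSK3A than on the controls. The median log2 change was -1.09, between -0.89 for MCM3 and -1.56 for MCM10. In mean deposited intensity, controls over arrays labelled GSK3A, that is 1.86-fold for MCM3 to 3.36-fold for MCM10, the lowest and highest of the 10. In the same comparison 7.62% of all genes were called lower (limma, adjusted p under 0.05), and the median change over all genes was 0.01. After normalization the 4 arrays labelled GSK3A all lay below the 3 control arrays for 10 of 10 members, which held for 8.02% of all genes. Values below are deposited intensities and changes are log2 of the intensity with 16 added.

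Of the ring subunits, MCM6 read 432 and 513 on the arrays labelled GSK3A hairpin 5 and 589 and 509.8 on those labelled GSK3A hairpin 6, against 1054, 1073 and 982 on the control arrays. No GSK3A array came near the lowest control, and the change was -1.02 (SE 0.10, adjusted p = 3.58e-08). MCM4 read 250.5 and 251 on the arrays labelled GSK3A hairpin 5 and 386 and 349 on those labelled GSK3A hairpin 6, against 899.5, 851 and 802 on the control arrays. The change of MCM4 was -1.43, the largest of the 6 ring subunits. MCM2 read 234 and 256 on the arrays labelled GSK3A hairpin 5 and 335 and 409.6 on those labelled GSK3A hairpin 6, against 754, 650.2 and 651 on the control arrays. Here too the labelled arrays and the controls did not overlap, and hairpin 5 read lower than hairpin 6 on each array. MCM7 read 226 and 246 on the arrays labelled GSK3A hairpin 5 and 379 and 371 on those labelled GSK3A hairpin 6, against 601, 659 and 638 on the control arrays. The changes of MCM2 and MCM7 were -1.12 and -1.02. MCM3 read 341 and 336 on the arrays labelled GSK3A hairpin 5 and 509.8 and 516 on those labelled GSK3A hairpin 6, against 789.7, 853 and 732 on the control arrays. MCM5 read 135 and 186 on the arrays labelled GSK3A hairpin 5 and 187 and 251 on those labelled GSK3A hairpin 6, against 366, 365 and 409 on the control arrays. MCM3 and MCM5 changed least, by -0.89 and -0.95, and MCM5 had the least certain of the 10 changes (adjusted p = 0.000947 by limma).

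The loading factors CDC6 and CDT1 also fell. CDC6 read 34.0 and 41.1 on the arrays labelled GSK3A hairpin 5 and 33.3 and 39.0 on those labelled GSK3A hairpin 6, against 131, 117 and 105 on the control arrays. Both hairpins gave like levels of CDC6, an ATPase that is part of the loading machinery, and the change was -1.39 (SE 0.20, adjusted p = 1.98e-05). CDT1 read 11.5 and 13.9 on the arrays labelled GSK3A hairpin 5 and 28.7 and 30.1 on those labelled GSK3A hairpin 6, against 67.9, 54.6 and 50.9 on the control arrays. CDT1, which brings the ring to the origin, changed by -1.06 (SE 0.11, adjusted p = 8.26e-08). The 16 added before the log is a sizable part of the lower intensities of CDT1, CDC6 and MCM10, so their log2 changes understate the change in intensity. That was 2.75-fold for CDT1 and 3.19-fold for CDC6. The CDT1 fold includes the readings of 11.5 and 13.9 with hairpin 5, which lie below the median intensity of every array.

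The factors that turn the loaded ring into a helicase fell as well. CDC45 read 58.5 and 61.6 on the arrays labelled GSK3A hairpin 5 and 98.3 and 80.5 on those labelled GSK3A hairpin 6, against 211, 232 and 176 on the control arrays. CDC45, a helicase subunit, changed by -1.32 (SE 0.15, adjusted p = 8.51e-07). MCM10 read 38.3 and 47.6 on the arrays labelled GSK3A hairpin 5 and 76.4 and 62.5 on those labelled GSK3A hairpin 6, against 199, 205 and 164 on the control arrays. MCM10 had the largest change of the 10, -1.56 (SE 0.22), with adjusted p = 9.41e-06 by limma.

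**Figure D1:**
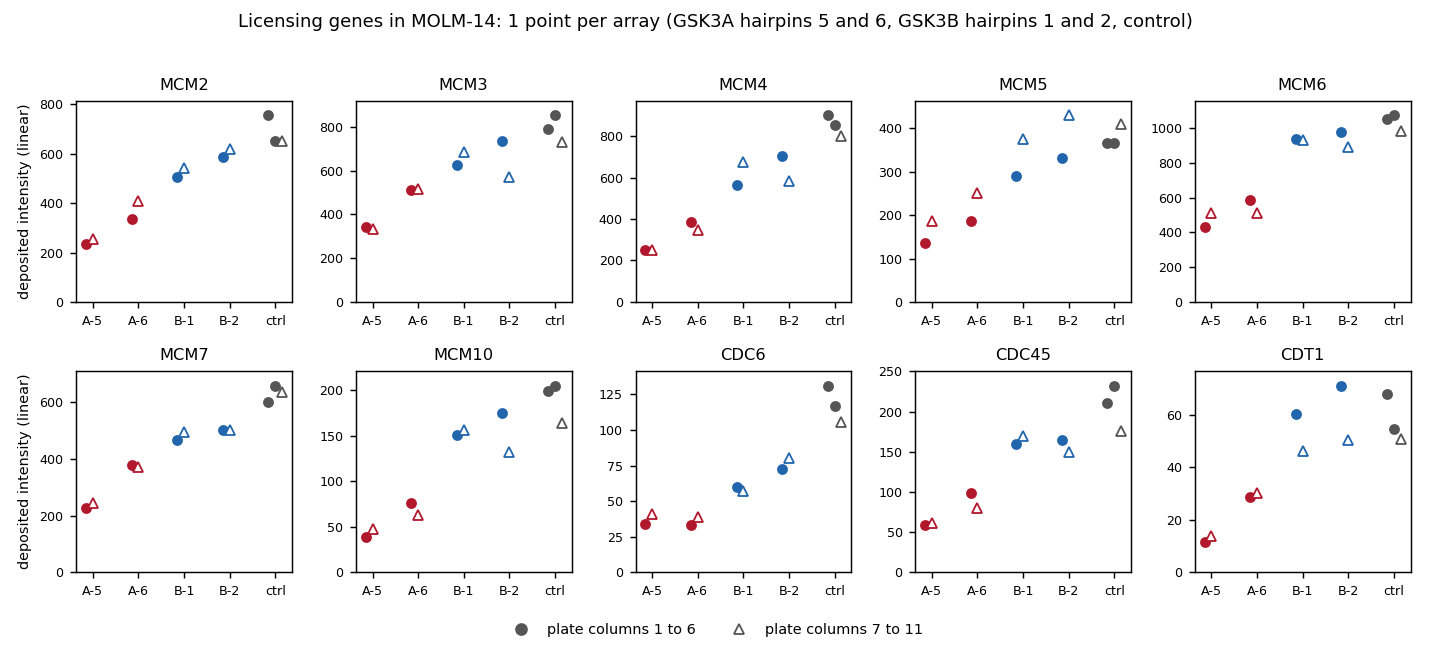
Deposited intensity (linear, y axis from 0) of the 10 licensing genes in MOLM-14, 1 point per array, by construct (A-5 and A-6 are GSK3A hairpins 5 and 6, B-1 and B-2 are GSK3B hairpins 1 and 2, ctrl is the scrambled control); circles are plate columns 1 to 6 and open triangles columns 7 to 11. For all 10 genes the 4 GSK3A points lie below the 3 control points, while the GSK3B points lie between them or overlap the controls.

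The genes did not lie equally low on the arrays of both GSK3A labels in MOLM-14. With hairpin 5 the 10 genes had a median change of -1.38, and all 10 were called lower (8.29% of all genes were). With hairpin 6 the median was -0.87, again with 10 of 10 called lower (4.76% of all genes). Set against each other, 4 genes were lower with hairpin 5 than with hairpin 6, against 4.64% of all genes called lower. They were MCM2 (-0.57, adjusted p = 0.0281), MCM3 (-0.59), MCM7 (-0.64) and CDT1 (-0.66) (log2 difference, limma). Fitted with plate columns as a block, 8 were called, all but MCM6 and CDC6, against 11.1% of all genes called lower. CDC6 differed between the hairpins by 0.04, with a 95% confidence interval of -0.51 to 0.59.

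In the other 3 lines no licensing gene passed the test. On the arrays labelled GSK3A 0 of 10 genes passed the test in HL-60 (9.02% of all genes did, in either direction), 0 in THP-1 (2.01%) and 0 in U937 (6.72%). At an unadjusted p under 0.05 (limma) the counts were 0 in HL-60, 0 in THP-1 and 1 (CDC6) in U937. The share of all genes at that threshold was not computed, here or for the other unadjusted counts. The changes ran from -0.29 to 0.20 in HL-60, from -0.15 to 0.15 in THP-1 and from -0.57 to -0.11 in U937. Their medians were -0.13 in HL-60, -0.06 in THP-1 and -0.23 in U937. In HL-60, MCM6 read 1526 and 1525 on the arrays labelled GSK3A hairpin 5 and 1489 and 1557 on those labelled GSK3A hairpin 6, against 1879, 1614 and 1689 in the controls. MCM4, MCM6 and CDC45 were the members with all 4 GSK3A arrays of HL-60 below its controls after normalization, 3 of 10 where 10.2% of all genes lay below. MCM4 read 763 and 666 on the arrays labelled GSK3A hairpin 5 and 666 and 728 on those labelled GSK3A hairpin 6, against 935, 853 and 830.1 in the controls. CDT1 had a positive value in HL-60, 0.20 (adjusted p = 0.308 by limma), at 51.0 and 51.3 on the arrays labelled GSK3A hairpin 5 and 70.0 and 53.8 on those labelled GSK3A hairpin 6, against 41.8, 50.7 and 43.9 in the controls. The lowest GSK3A array read just above the highest control in the deposited values, and the groups overlap after normalization. In THP-1, MCM6 read 1122 and 1159.6 on the arrays labelled GSK3A hairpin 5 and 1037 and 1150.2 on those labelled GSK3A hairpin 6, against 1152, 1235 and 1153 in the controls, and the groups overlap. MCM7 was the member with all 4 GSK3A arrays of THP-1 below the controls, 1 of 10 where 6.14% of all genes lay below, at 597 and 584 on the arrays labelled GSK3A hairpin 5 and 586 and 599.8 on those labelled GSK3A hairpin 6, against 619, 619 and 625 in the controls. In U937 CDC6 read 124 and 63.95 on the arrays labelled GSK3A hairpin 5 and 105 and 46.7 on those labelled GSK3A hairpin 6, against 168, 155 and 76.9 in the controls, a change of -0.57 (SE 0.20, adjusted p = 0.11) by limma. The U937 groups overlap for all members after normalization, and 5.09% of all genes had the GSK3A arrays all below the controls. MCM4 was called in HL-60 with plate columns as a block (-0.29, 1 member against 10.4% of all genes called lower). In U937 the same block gave calls for MCM4 (-0.29), MCM7 (-0.18) and CDC6 (-0.44), 3 members against 7.84% of all genes called lower. In U937 the count without the block moved with single arrays. It was 4 without control 3, 4 without replicate 1 of hairpin 6 and 1 without replicate 1 of hairpin 5. These counts stand without the share of all genes in the same fits. Leaving out an array also changes how the groups divide over the plate columns, so they are not read as results about the members.

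The difference between the lines was tested directly, with MOLM-14 singled out in 1 contrast after earlier results of these data were known. That contrast is therefore not an independent test of MOLM-14. The GSK3A change in MOLM-14 was lower than the mean of the other 3 lines for 10 of 10 genes (median difference -1.09), and 3.26% of all genes were lower in this contrast. CDC45 differed by -1.22 (SE 0.18, adjusted p = 7.21e-05) and CDT1 by -1.11 (SE 0.12, adjusted p = 1.79e-06) (limma). A moderated F-test of any difference between the 4 lines called 9 of 10, against 7.83% of all genes, and missed MCM5 (adjusted p = 0.117). With plate columns as a block the F-test called MCM5 (adjusted p = 3.03e-07), where 24.9% of all genes were called.

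**Figure D2:**
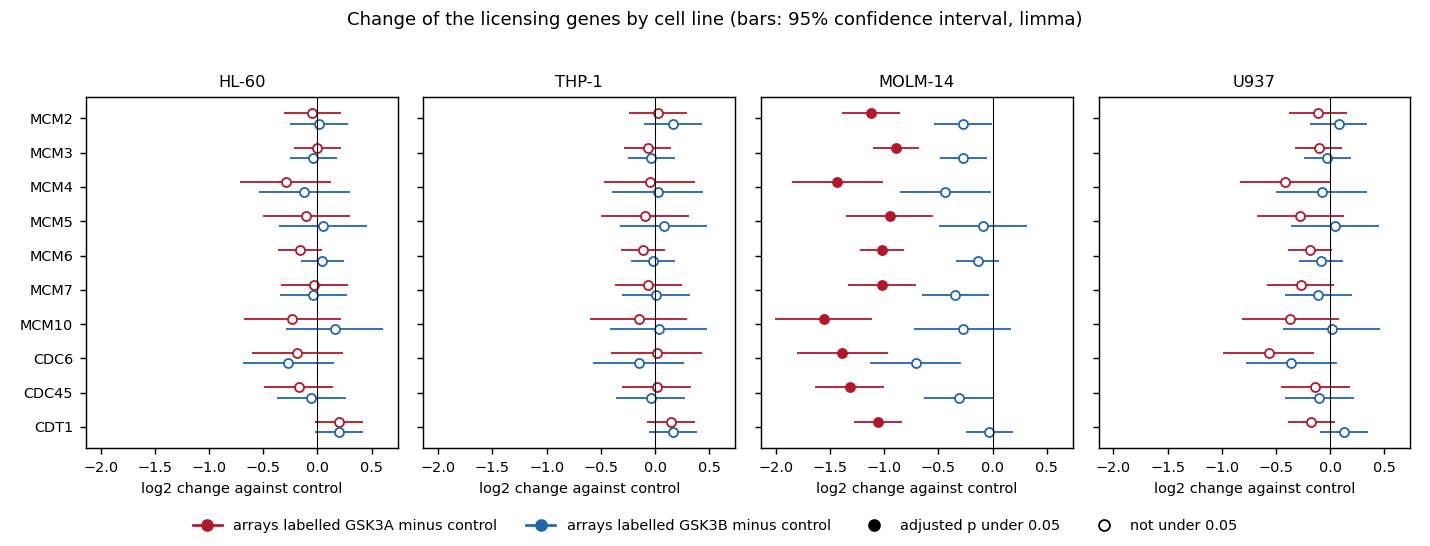
Log2 change against the control (x axis) of each licensing gene (y axis) in the 4 lines, with arrays labelled GSK3A in red above GSK3B in blue; points are limma estimates, bars their 95% confidence intervals, and filled points passed the test. Filled points occur in the MOLM-14 panel for GSK3A alone, where all 10 lie below -0.8. The open GSK3A points run from -0.29 to 0.20 in HL-60, from -0.15 to 0.15 in THP-1 and from -0.57 to -0.11 in U937, where all 10 are negative.

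Averaged over the 4 lines, all 10 genes were lower on the arrays labelled GSK3A (median -0.36), against 10.2% of all genes called lower. The average rests on MOLM-14. Without that line 0 of 10 passed the test, against 17.5% of all genes in either direction, the median was -0.14 and CDT1 was at 0.058. Without MOLM-14 and with plate columns as a block, an alternative added after the data were seen, MCM4 (-0.21), MCM5 (-0.12), MCM6 (-0.14), MCM10 (-0.21) and CDC6 (-0.21) were called lower. That is 5 of 10 against 27.3% of all genes called in either direction, with a median of -0.11. The label GSK3A hairpin 5 alone over the lines gave 10 of 10 lower (10.6% of all genes) and hairpin 6 gave 9 (7.88%), with CDT1 the exception.

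Within plate columns the MOLM-14 result had the same direction in both. Shares of all genes in this paragraph count calls in either direction. In columns 7 to 11, with 1 control array and 2 GSK3A arrays labelled as hairpins 5 and 6, the median change was -0.99 and 4 genes passed the test, against 0.427% of all genes. In columns 1 to 6, with 2 controls, the median was -1.22 and 10 of 10 passed, against 9.54% of all genes. The lone control in columns 7 to 11 was assumed to vary like the other groups there. The contrast of MOLM-14 with the other lines had a median of -0.91 in columns 7 to 11 (0 called, with 0.0164% of all genes called) and -1.26 in columns 1 to 6 (10 called, 3.73%). Over the 4 lines the medians were -0.34 in columns 7 to 11 (1 called, 0.345%) and -0.35 in columns 1 to 6 (9 called, 11.5%).

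The 2 targets were also set against each other, which uses no control array. In MOLM-14 all 10 genes were lower on the arrays labelled GSK3A than on the GSK3B arrays (median difference -0.87), against 8.39% of all genes called lower. MCM10 read 38.3 and 47.6 (hairpin 5) and 76.4 and 62.5 (hairpin 6) with GSK3A, against 151 and 156 (hairpin 1) and 175 and 132 (hairpin 2) with GSK3B. These values do not overlap, and the difference was -1.28 (SE 0.20, adjusted p = 3.91e-05) by limma. CDC6 and MCM7 both differed by -0.68, and MCM3 had the smallest of the 10 differences, -0.62. Over the 4 lines 9 of 10 genes were lower with GSK3A than with GSK3B (11.2% of all genes), and CDC6 had a difference of -0.16 (SE 0.09, adjusted p = 0.279). CDC6 was called with plate columns as a block (-0.16, adjusted p = 0.00229 by limma), where 17.6% of all genes were called lower. In HL-60, THP-1 and U937 no member was called in this contrast without a block (10.6%, 2.21% and 5.01% of all genes, in the same order; unadjusted p under 0.05 for MCM6 in HL-60 and CDT1 in U937, none in THP-1). With plate columns as a block MCM6 (-0.21) and MCM10 (-0.40) were lower with GSK3A in HL-60, 2 members against 10.6% of all genes called lower. In U937 the block gave 5 members lower with GSK3A, MCM4, MCM5, MCM7, MCM10 and CDT1, against 7.41% of all genes called lower.

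With GSK3B hairpins no licensing gene passed the test in a single line. In MOLM-14 all 10 had a negative change (median -0.27) and 0 passed the test, with 1.44% of all genes called. At an unadjusted p under 0.05 (limma) there were 5, a count that the 1.44% cannot be set against. After normalization the GSK3B arrays all lay below the controls for 7 of the 10 (MCM2, MCM3, MCM4, MCM6, MCM7, CDC6 and CDC45), which held for 2.79% of all genes. CDC6 read 60.0 and 57.1 with GSK3B hairpin 1 and 72.5 and 80.4 with GSK3B hairpin 2, against 131, 117 and 105 in the controls, a change of -0.71 (SE 0.20, adjusted p = 0.0838). MCM4 read 565 and 675 with GSK3B hairpin 1 and 705 and 584 with GSK3B hairpin 2, against 899.5, 851 and 802 in the controls, a change of -0.44. Both genes lay below their controls on every GSK3B array. The fit with plate columns as a block called 6 members lower in MOLM-14, against 2.99% of all genes. They were MCM2 (-0.29), MCM3 (-0.26), MCM4 (-0.43), MCM7 (-0.35), CDC6 (-0.71) and CDC45 (-0.29). The test of MOLM-14 against the other lines called 0 members for GSK3B (0.107% of all genes), with 1 (MCM2) at an unadjusted p under 0.05. With plate columns as a block it called MCM2, MCM7 and CDC6, all lower in MOLM-14, against 0.378% of all genes.

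Over the 4 lines CDC6 was the member that fell with GSK3B hairpins, at -0.37 (SE 0.10, adjusted p = 0.0399) by limma, against 1.55% of all genes called lower. The call was lost in 20 of the 44 fits that left out 1 array, and the other CDC6 probe set had a change of -0.15 (adjusted p = 0.703). With plate columns as a block CDC6 and MCM7 were called lower, against 4.65% of all genes. Taken singly over the lines, GSK3B hairpin 1 gave CDC6 lower (-0.48, adjusted p = 0.0185 by limma, 4.64% of all genes called in either direction). With GSK3B hairpin 2 CDC6 did not pass (-0.26, adjusted p = 0.254 by limma). CDT1 was higher (0.23, adjusted p = 0.0307 by limma, 6.27% of all genes called in either direction). In the blocked fit hairpin 1 gave CDC6 and MCM4 lower (12.9% of all genes), and hairpin 2 gave CDC6 and MCM7 lower and CDT1 higher (15.9%). Single arrays were not left out of these hairpin contrasts. No member passed the test in HL-60 (0.986% of all genes), THP-1 (0.0493%) or U937 (0.214%), and none had an unadjusted p under 0.05 in these lines. In THP-1 the 2 GSK3B hairpins lay on opposite sides of the controls. All 10 genes were negative with hairpin 1 (median -0.14) (0.173% of all genes called) and positive with hairpin 2 (median 0.16, 0.460% of all genes called), and none of these values passed the test. At an unadjusted p under 0.05 (limma) there were 0 with hairpin 1 and 2 with hairpin 2, MCM2 and CDT1. With plate columns as a block MCM2 was called higher with hairpin 2 (0.36, adjusted p = 0.0348 by limma), where 1.95% of all genes were called in either direction. MCM2 in THP-1 read 645 and 735 with GSK3B hairpin 1 and 918 and 879 with GSK3B hairpin 2, against 686, 709.6 and 728 in the controls. CDT1 in THP-1 read 61.3 and 67.8 with GSK3B hairpin 1 and 103 and 93.9 with GSK3B hairpin 2, against 71.2, 69.7 and 68.1 in the controls. In both genes the hairpin 1 arrays lay below the hairpin 2 arrays, and hairpin 1 overlapped the controls in MCM2 alone. Hairpin 1 minus hairpin 2 gave 0 calls, against 0.847% of all genes called. At an unadjusted p under 0.05 (limma) there were 4 members, with no share of all genes beside them. The blocked fit gave 4 (MCM2, MCM4, CDC6 and CDT1), all lower with hairpin 1, against 1.83% of all genes.

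In U937 the licensing genes differed between plate columns. Arrays in columns 7 to 11 were lower than those in columns 1 to 6 for 9 of 10 genes (median -0.56), against 17.2% of all genes called lower. MCM10 read 69.5 and 53.3 (GSK3A), 93.1 and 95.8 (GSK3B) and 67.5 (control) in plate columns 7 to 11, against 123 and 128 (GSK3A), 164 and 139 (GSK3B) and 165 and 148 (control) in columns 1 to 6. The difference for MCM10 was -0.80 (SE 0.08, adjusted p = 4.67e-09). MCM7 read 643 and 589 (GSK3A), 839 and 736 (GSK3B) and 712 (control) in plate columns 7 to 11, against 1033 and 1085 (GSK3A), 1059 and 1044 (GSK3B) and 1213 and 1130.2 (control) in columns 1 to 6. MCM7 differed by -0.58, and the columns do not overlap for either gene. CDT1 did not follow, with a difference of 0.09 (SE 0.08, adjusted p = 0.447). In MOLM-14 the same contrast called MCM5 alone, which was higher in columns 7 to 11 (0.33), although 34.2% of all genes differed. In HL-60 0 members were called (0.00822% of all genes) and in THP-1 also 0 of 10, where no gene was called, and no member had an unadjusted p under 0.05 in either line. Each construct is spread over both column groups, so the columns widen the spread within the U937 groups. The division is uneven. The controls have 2 arrays in columns 1 to 6 and 1 in columns 7 to 11, and each hairpin has 1 array in either. A column difference therefore also shifts the U937 changes against the control in the fit without the block. With the block the median change of the members in U937 was -0.17 beside -0.23 without it for GSK3A. For GSK3B it was 0.03 beside -0.05. Why the columns differ was not tested.

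**Figure D3:**
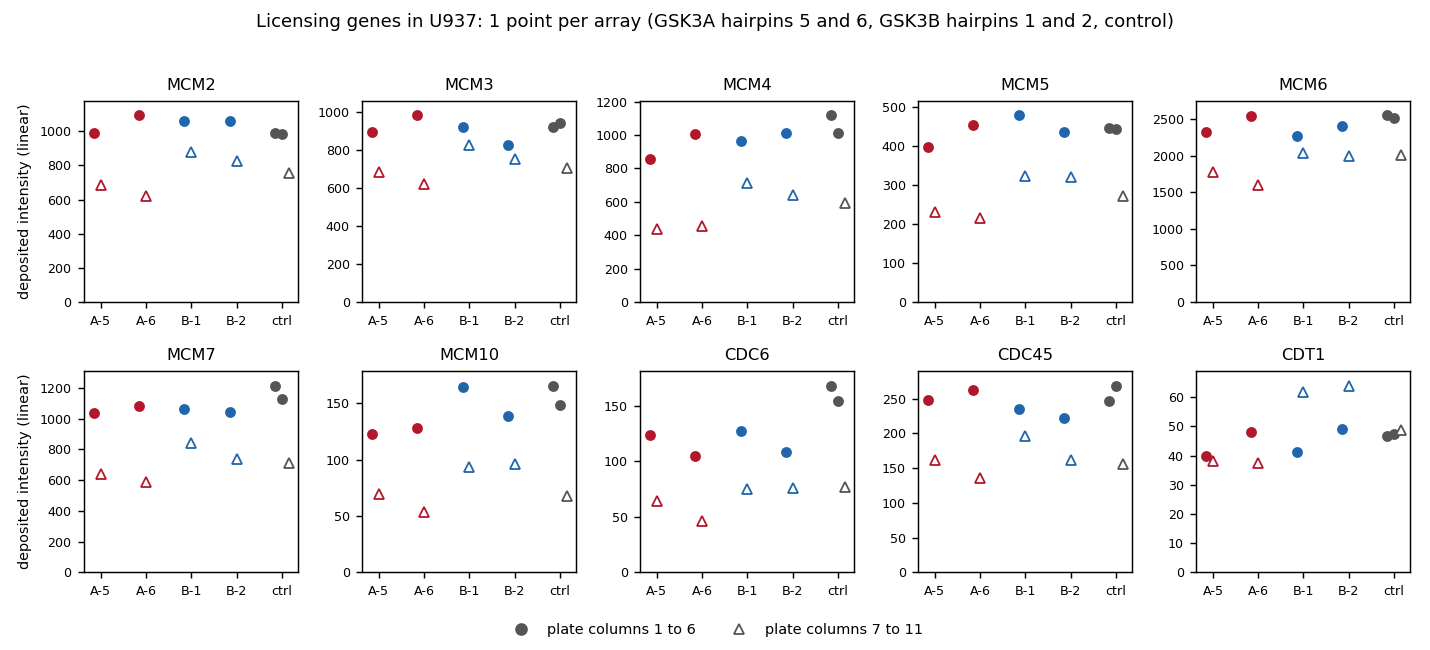
Deposited intensity (linear, y axis from 0) of the 10 licensing genes in U937, 1 point per array, by construct (A-5 and A-6 are GSK3A hairpins, B-1 and B-2 GSK3B hairpins, ctrl the scrambled control); circles are plate columns 1 to 6 and open triangles columns 7 to 11. In 9 of the 10 genes the triangles lie lower than the circles of their construct on average, and for MCM7 and MCM10 no triangle reaches a circle.

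The control arrays gave each line's own level of the genes (deposited intensity, mean ± SD, n = 3), compared within a gene. Of the 10 genes, 7 differed between the lines by an F-test in limma, where 67.8% of all genes did. MCM3, MCM4 and CDC6 did not pass it (adjusted p = 0.113, 0.446 and 0.0549). In the blocked fit MCM3 alone did not pass, so 9 did, against 70.7% of all genes. MCM6 averaged 2361 ± 302 in U937, 1727 ± 137 in HL-60, 1179.9 ± 47.8 in THP-1 and 1036 ± 48.0 in MOLM-14. Its order was U937 over HL-60 over the other lines, and THP-1 minus MOLM-14 was not called. CDC45 averaged 499.6 ± 5.79 in HL-60, 224 ± 59.3 in U937, 206 ± 28.4 in MOLM-14 and 176 ± 6.25 in THP-1. HL-60 stood above the rest for CDC45, and no pair of the other 3 lines was called. MCM2 averaged 1124 ± 13.4 in HL-60, 912 ± 133 in U937, 708 ± 21.3 in THP-1 and 685 ± 59.9 in MOLM-14. HL-60 exceeded THP-1 and MOLM-14, and no pair with U937 was called.

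The remaining genes had other orders. MCM5 averaged 653 ± 51.3 in HL-60, 490.4 ± 2.34 in THP-1, 387 ± 99.0 in U937 and 379.8 ± 25.3 in MOLM-14, with HL-60 above U937 and MOLM-14. MCM7 averaged 1018 ± 269 in U937, 768 ± 28.1 in HL-60, 633 ± 29.2 in MOLM-14 and 621 ± 3.72 in THP-1, with U937 above MOLM-14 and THP-1. MCM10 averaged 189 ± 22.1 in MOLM-14, 177 ± 10.0 in THP-1, 127 ± 52.2 in U937 and 123 ± 1.66 in HL-60, and CDT1 averaged 69.7 ± 1.58 in THP-1, 57.8 ± 8.94 in MOLM-14, 47.6 ± 1.11 in U937 and 45.5 ± 4.69 in HL-60. For MCM10 the called pair was MOLM-14 over U937, and CDT1 was higher in THP-1 than in HL-60 and U937. U937 had the widest SD of the 4 lines in 9 of the 10 genes, CDT1 being the exception.

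Over the 6 pairs of lines, 19 of 60 comparisons of a member were called. The count was 5 for HL-60 minus THP-1 (49.8% of all genes) and 5 for HL-60 minus MOLM-14 (41.2%). It was 3 each for HL-60 minus U937 (44.1%), THP-1 minus U937 (48.2%) and MOLM-14 minus U937 (42.7%). For THP-1 minus MOLM-14 it was 0 (42.9%), with 0 members at an unadjusted p under 0.05. The blocked counts were 9 for HL-60 minus THP-1 (55.0% of all genes), 8 for HL-60 minus MOLM-14 (48.8%) and 4 for HL-60 minus U937 (50.7%). They were 3 for THP-1 minus MOLM-14 (50.0%, MCM4, MCM5 and CDC45), 7 for THP-1 minus U937 (54.5%) and 7 for MOLM-14 minus U937 (50.2%).

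**Figure D4:**
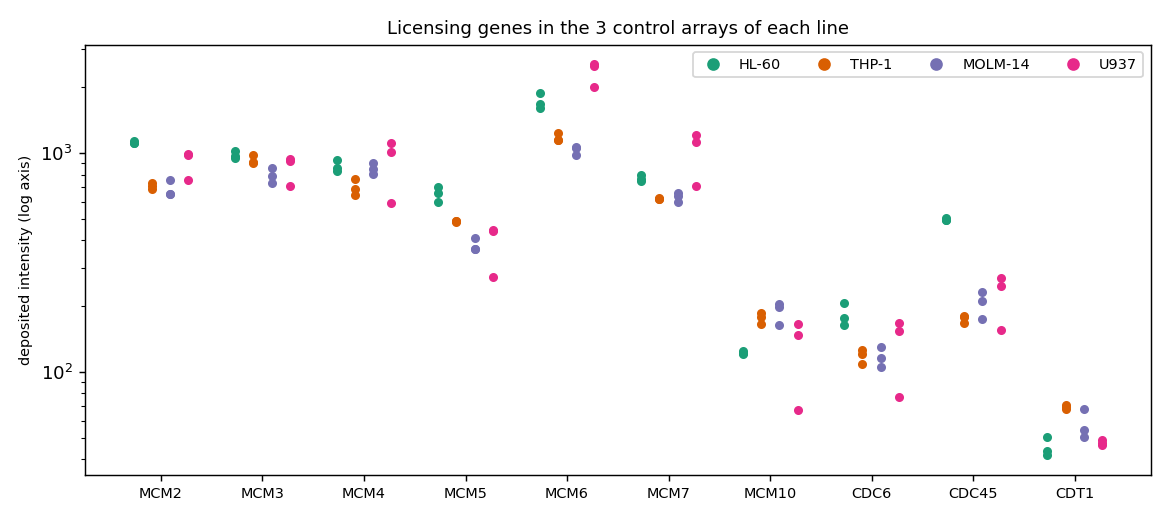
Deposited intensity (log axis) of the 10 licensing genes on the 3 control arrays of each line, 1 point per array, with lines by colour. MCM6 is highest in U937 (2361 on average) and CDC45 in HL-60 (499.6), while MCM3 and MCM4 lie close together in the 4 lines; levels of different genes are not comparable.

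All 15 probe sets of the 10 genes gave the same call for GSK3A in MOLM-14. The other probe sets of MCM4 were at -1.23 (adjusted p = 1.34e-06) and -1.17 (adjusted p = 0.0167), beside -1.43 (adjusted p = 1.69e-05) for the brightest one, in a limma fit over all probe sets. MCM5 had -0.87 (adjusted p = 0.000346) beside -0.95 (adjusted p = 0.00128), MCM7 had -1.16 (adjusted p = 8.02e-05) beside -1.02 (adjusted p = 2.82e-05), and CDC6 had -1.18 (adjusted p = 0.000423) beside -1.39 (adjusted p = 2.77e-05). Over the lines all 15 were lower as well.

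The genes around licensing were read from lists, and the genes named from each are among its 4 with the smallest adjusted p, apart from POLD4 in MOLM-14, named as the 1 gene of its list that was higher. As background for the list counts on the arrays labelled GSK3A in MOLM-14, 7.62% of all genes were called lower and 8.31% higher. Of 14 measured genes of origin recognition and licensing control, 8 were lower, none was higher, and the median was -0.37. DTL (-1.31), CUL4A (-0.40) and geminin (GMNN, -0.98), which restrain licensing, fell together with CDC7 (-0.78), the kinase that fires licensed origins. Of 26 origin firing and fork genes 22 were lower (median -0.75), among them the clamp loader subunits RFC4 (-0.89) and RFC5 (-0.95), TOPBP1 (-0.56) and the GINS subunit GINS2 (-1.13). Of 11 polymerase and primase genes 8 were lower, such as POLE2 (-1.20) and POLD1 (-0.65), while POLD4 was higher (0.42). All 7 nucleotide synthesis genes measured were lower (median -0.87), among them the ribonucleotide reductase subunits RRM2 (-1.29) and RRM1 (-0.96).

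Among regulators of the G1/S step, of 17 E2F and RB genes 7 were lower, beside the same 7.62% of all genes, among them the cyclins CCNE2 (-1.10) and CCNA2 (-1.01) and the E2F partner TFDP2 (-0.53). CDKN1A, the cyclin-dependent kinase inhibitor p21, was higher (0.70, adjusted p = 0.000352 by limma), and the list median was -0.17. Of 23 mitotic genes 22 were lower (median -0.93), among them CDK1 (-1.21) and NEK2 (-1.12). Genes of S phase and of mitosis were thus lower in MOLM-14 beside the licensing genes, as averages of the 2 hairpins. With hairpin 5 and hairpin 6, in that order, 22 and 4 of 23 mitotic genes were called lower (medians -1.30 and -0.59). Fork genes gave 22 and 15 of 26, licensing control genes 9 and 3 of 14 and polymerase genes 8 and 7 of 11. Nucleotide synthesis genes gave 7 and 4 of 7, and E2F and RB genes 7 and 3 of 17. Of all genes 8.29% and 4.76% were called lower. With GSK3B in MOLM-14 the 6 lists had 1 gene lower, the fork gene RFC5 (-0.59), and none higher, beside the 1.44% of all genes called in either direction.

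Over the 4 lines fewer genes of the lists passed the test than in MOLM-14. On the arrays labelled GSK3A 10.2% of all genes were lower and 10.9% higher. Against that, 5 of 14 licensing control genes were lower, 14 of 26 fork genes, 6 of 11 polymerase genes (POLD4 higher) and 2 of 7 nucleotide synthesis genes. The 2 of 17 E2F and RB genes (RB1 and CDKN1A higher) and 3 of 23 mitotic genes that were lower are shares near that of all genes. CUL4A (-0.44) and the single-strand binding subunit RPA1 (-0.49) were among the genes that fell. The lists differ in length and spread, and no test of one list against another was made.

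**Figure D5:**
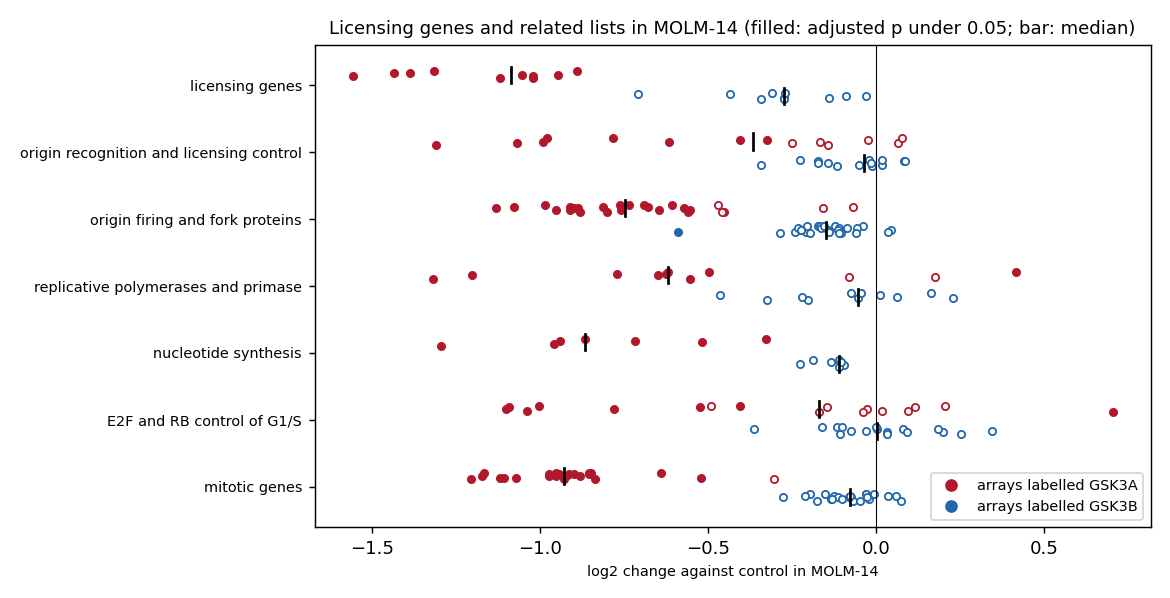
Log2 change against the control in MOLM-14 (x axis) of the licensing genes and of 6 lists of related genes (y axis), with arrays labelled GSK3A in red and GSK3B in blue; 1 point per gene, filled where it passed the test, with black bars at the list medians. The GSK3A medians run from -1.09 for the licensing genes to -0.17 for the E2F and RB genes, while the GSK3B medians run from -0.27 for the licensing genes, all 10 of which are negative, to 0.00 for the E2F and RB genes, with RFC5 (-0.59) the 1 filled point.

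The genes most like the licensing genes were found by the Pearson r, within each line over its 11 arrays, between a gene and the mean of the members, averaged over the 4 lines. The 10 highest of 12155 genes were SLC12A4 (0.895), TRIP13 (0.884), RAD54B (0.883), ICMT (0.866), EXO1 (0.862), UNG (0.860), RAD1 (0.852), BLM (0.842), FIRRM (0.838) and POLE2 (0.835), with a median over all genes of 0.0015. TRIP13, RAD54B, EXO1, BLM and RAD1 are genes of recombination and the DNA damage response, UNG is a uracil glycosylase and POLE2 a polymerase epsilon subunit. FIRRM is a regulator of recombination, SLC12A4 a potassium chloride cotransporter and ICMT a methyltransferase of prenylated proteins. The arrays share constructs and plate columns, so these values describe likeness and nothing more. Among the members, set against the mean of the other members, MCM4 was the most like (0.90) and CDT1 the least (0.29), with 0.94 in MOLM-14 but 0.15 in U937 and -0.54 in HL-60.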

How the data were processed

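RNA of 44 cultures was hybridized to Affymetrix high-throughput human arrays. The deposited intensity values are the authors' linear summaries of 22277 probe sets. RMA and MAS5 are both named in the submitters' processing notes, and which one made the table is not given in the sources used here. Values ran from 3.40 to 12933, and the number of arrays limits the precision. All columns matched a labelled sample.

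Here 16 was added, log2 was taken and arrays were quantile-normalized. Of the probe sets, 62 are controls, 19724 name 1 gene, 568 several and 1923 none; symbols were updated by Entrez identifier for 19707. For 4505 genes with several probe sets the one with the highest mean was kept, which left 12165 genes, with no filter on low values. Means of 20 groups (line and hairpin) were modelled by limma 3.58.1 (R 4.3.3, 24 residual degrees of freedom). Tests were two-sided, with Benjamini-Hochberg adjustment over all genes and a threshold of 0.05. A target's change is the average over its hairpins against the control. Its p-value does not measure the spread between hairpins, and GSK3A and GSK3B changes share their controls. The fit was tested on simulated data.

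The members, the gene lists and the contrast of MOLM-14 with the other lines were chosen with earlier results of these data known. All members are named, with GSK3A and GSK3B, up to 4 genes per list by smallest adjusted p, and the 10 genes most like the members. Replicate numbers were checked for pairing by the correlation, between constructs, of replicate 2 minus replicate 1 over genes. It was 0.06 to 0.12 in HL-60, -0.01 to 0.15 in THP-1, 0.56 to 0.75 in MOLM-14 and 0.76 to 0.80 in U937 between hairpins. Between hairpins and control replicates 2 minus 1 it was -0.06 to 0.11, so the numbers do not pair the hairpin arrays with the controls. With control 3 minus controls 1 and 2, as the plate columns divide them, it was 0.59 to 0.75 in MOLM-14 and 0.76 to 0.82 in U937. Alternatives were other pseudocounts, normalizations, probe set rules, a filter, an intensity trend, blocks, and leaving out arrays, lines or plate columns.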

Additional observations from a re-analysis of the deposited data

Results flagged for a closer look

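The GSK3A change differed between MOLM-14 and the mean of the other 3 lines for each of the 10 licensing genes, by the contrast in limma, and these values were picked out for that reason. On the log2 scale the differences were -1.08 for MCM2, -0.83 for MCM3, -1.18 for MCM4, -0.79 for MCM5, -0.87 for MCM6 and -0.90 for MCM7. For the other genes they were -1.31 for MCM10, -1.14 for CDC6, -1.22 for CDC45 and -1.11 for CDT1. All 10 were negative, in a contrast chosen with earlier results of these data known. The GSK3A transcript itself was not called lower on the MOLM-14 arrays labelled GSK3A, as given above, and how that bears on these values was not tested.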

How the results depend on the processing

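Counts of members called were recomputed under each alternative. They stand here without the share of all genes called in the same fit, which moved too. With plate columns as a block that share rose from 6.72% to 16% for GSK3A in U937, in either direction. For GSK3B in MOLM-14 it rose from 1.44% to 6.77%. A higher count below is therefore not read as a result about the members. GSK3A in MOLM-14 gave 10 in all but 1 alternative (plate columns 7 to 11 alone, 4), and 10 whichever array was left out. Over the lines GSK3A gave 0 without MOLM-14, 5 without MOLM-14 and with plate columns as a block, and 1 within columns 7 to 11. CDT1 reversed to 0.058 and 0.063 in these fits without MOLM-14. GSK3A minus GSK3B over lines gave 0 without MOLM-14, 5 with the plate block added, and 4 and 5 within columns 1 to 6 and 7 to 11; in MOLM-14 it gave 5 within columns 7 to 11. MOLM-14 minus other lines gave 0 within columns 7 to 11, and the F-test of GSK3A gave 5 with hairpin as a random block, 5 without THP-1, 0 without MOLM-14 and 0 within columns 7 to 11.

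Plate columns as a block gave 1 for GSK3A in HL-60, 3 in U937, 2 for GSK3A minus GSK3B in HL-60 and 5 in U937. They gave 4 for hairpin 5 minus 6 over lines and 3 for GSK3B hairpin 1 minus 2 over lines. For GSK3B they gave 6 in MOLM-14, 2 over lines, 2 for its F-test and 3 for its MOLM-14 contrast. Summed over all hairpin and line pairs, 34 calls of a member were made, against 20 without the block. The replicate numbers do not pair the hairpin arrays with the controls. The replicate block gave 7 for GSK3A in U937, 1 each for GSK3A minus GSK3B in HL-60 and U937, and 3 for each hairpin difference over lines. For GSK3B it gave 4 in MOLM-14, 2 in U937 and 4 over lines. Its sum over all hairpin and line pairs was 37 calls of a member.

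Leaving out a line gave, without HL-60, 3 for the control F-test (7 in the full set), 0 for GSK3B over lines and 0 for hairpin 1 minus 2. Without THP-1 the last 2 were also 0. Without MOLM-14 GSK3B over lines and hairpin 5 minus 6 gave 0. Without U937 hairpin 5 minus 6 gave 5, hairpin 1 minus 2 gave 4, GSK3B over lines 4, its F-test 1 and its MOLM-14 contrast 2. GSK3B over lines gave 0 with the random block, with the mean of probe sets and within either plate columns, and 1 without MOLM-14 and with the plate block.

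Leaving out 1 array moved GSK3A in U937 between 0 and 4 (4 without control 3 or without hairpin 6 replicate 1), GSK3A minus GSK3B in U937 between 0 and 3 (3 without hairpin 6 replicate 1), hairpin 5 minus 6 over lines between 1 and 4 (4 without U937 hairpin 6 replicate 2), GSK3B over lines and hairpin 1 minus 2 over lines between 0 and 1, and GSK3B in MOLM-14 between 0 and 1. In U937 leaving out an array also changes how the groups divide over the plate columns, so those counts cannot be told apart from the column difference. Of the single-gene values, 3520 of the planned ones were counted as unchanged in call, 99 lost the call, 10 gained one and 1 was counted as reversed. A value called in neither fit counts among the 3520 whatever its sign. Changes of direction among such values are therefore not counted here. Of the dimmer members (CDT1, CDC6, MCM10), CDT1 is limited by signal near the 16 added, and CDC6 and MCM10 less so.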
